A study of Mus musculus with 8 samples.

Results

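The comparison is between H3.3-HA peaks of wild type (WT) cells and of cells without Hira, both at day 15 of differentiation towards cardiomyocytes. The WT list held 27272 peaks and the Hira-null list 7332 peaks, which together make 34604 of the 75040 peaks in the 4 lists of the series. The members were split by overlap: a WT peak was WT-only when no Hira-null peak shared at least 1 bp with it, and a Hira-null peak was Hira-null-only when no WT peak did. WT cells were the W9.5 mouse embryonic stem cell line, and Hira-null cells came from Clone104, a single mutant line, so the genotype cannot be told apart from that line. In both lines H3.3 carried an HA tag, and chromatin was cut with micrococcal nuclease without cross-linking and precipitated with anti-HA supernatant of the 12AC5 hybridoma. Samples taken at day 0 before differentiation formed the other pair of lists, and the submitters gave every sample the cell type ESC, day 15 included. Each condition had 1 ChIP library, so no difference below carries a test between conditions, and intervals are 95% exact binomial intervals that cover counting error over peaks only. Read depth was not known, and a longer list can also come from a deeper library. All positions are on mm9, distances run from the annotated gene start to the peak midpoint, and a peak score is the peak caller's scaled negative log10 of the p-value, compared here within a list only. Where scores or widths of both lists are printed at 1 locus, each describes its own list. They do not measure a gain or loss of H3.3.

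H3.3 is the histone H3 variant that is placed in chromatin throughout the cell cycle, outside DNA replication. HIRA is the chaperone known for placing it over genes, at promoters and at enhancers, while the DAXX and ATRX pair is known for placing it at telomeres and other repeated DNA. Active genes carry the variant over their body and just past their end, where transcription stops. In the heart, GATA4, NKX2-5, TBX5, MEF2 and TEAD factors bind such enhancers together.

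Short stretches of 7 peaks of single-copy sequence are printed first as examples, and they do not stand for their sets. They are WT-only peaks upstream of Pde3a and in introns of Tead1 and Macf1, a shared peak inside a core cardiac factor gene, and Hira-null-only peaks at 2 imprinted loci and a fibrillar collagen gene. Each is the 200 bp around the midpoint, read from the plus strand of the mm9 reference, and no window touched an annotated exon. Capitals mark matches on either strand to AGATAA for GATA factors, CAAGTG for NKX2-5, GGAATG for TEAD factors, TAAAAATA for MEF2 factors or TGAGTCA for AP-1.
WT-only, upstream of Pde3a, chr6:141137572-141137771: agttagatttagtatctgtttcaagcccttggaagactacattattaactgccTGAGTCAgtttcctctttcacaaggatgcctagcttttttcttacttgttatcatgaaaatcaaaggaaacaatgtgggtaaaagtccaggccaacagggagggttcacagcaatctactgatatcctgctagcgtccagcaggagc
WT-only, intron of Tead1, chr7:119969302-119969501: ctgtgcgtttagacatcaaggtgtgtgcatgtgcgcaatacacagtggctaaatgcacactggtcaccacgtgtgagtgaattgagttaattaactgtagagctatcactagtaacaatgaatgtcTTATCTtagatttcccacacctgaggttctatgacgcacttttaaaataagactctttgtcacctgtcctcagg
WT-only, intron of Macf1, chr4:123230390-123230589: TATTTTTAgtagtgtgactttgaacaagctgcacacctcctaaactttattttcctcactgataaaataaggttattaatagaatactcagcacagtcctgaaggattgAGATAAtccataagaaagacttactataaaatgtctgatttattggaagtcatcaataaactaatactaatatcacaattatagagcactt
Shared, intron of Gata4, chr14:63854419-63854618: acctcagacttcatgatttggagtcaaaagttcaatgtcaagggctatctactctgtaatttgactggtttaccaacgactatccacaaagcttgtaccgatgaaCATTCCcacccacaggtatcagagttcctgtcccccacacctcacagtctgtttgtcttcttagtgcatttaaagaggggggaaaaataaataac
Hira-null-only, intron of Igf2, chr7:149852397-149852596: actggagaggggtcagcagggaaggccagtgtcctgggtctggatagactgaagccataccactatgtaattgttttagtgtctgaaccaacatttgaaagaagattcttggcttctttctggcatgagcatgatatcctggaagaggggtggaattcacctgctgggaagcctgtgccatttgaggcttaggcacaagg
Hira-null-only, upstream of Igf2r, chr17:12982047-12982246: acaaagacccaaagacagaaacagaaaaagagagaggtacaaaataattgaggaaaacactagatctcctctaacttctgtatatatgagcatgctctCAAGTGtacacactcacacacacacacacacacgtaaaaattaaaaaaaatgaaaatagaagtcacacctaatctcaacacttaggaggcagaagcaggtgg
Hira-null-only, intron of Col3a1, chr1:45404850-45405049: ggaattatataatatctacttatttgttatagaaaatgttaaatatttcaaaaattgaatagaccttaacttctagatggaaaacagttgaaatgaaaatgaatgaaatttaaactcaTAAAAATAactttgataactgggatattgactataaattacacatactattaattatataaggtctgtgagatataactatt
The Pde3a window held 1 AP-1 match, Tead1 1 GATA match, Macf1 1 GATA and 1 MEF2 match, Gata4 1 TEAD match, the window beside Igf2r 1 NKX2-5 match and Col3a1 1 MEF2 match. No match to these letters lay in the Igf2 window. Another window, read at a shared WT peak upstream of Chd2 and not printed, held 1 TEAD and 1 MEF2 match. Such matches are common: outside chromosomes 8 and 11, 36.1% of 200 bp windows of the genome held at least 1 of the 5, against 43.5% at WT-only peaks (42.8% to 44.3%), 42.4% at shared WT peaks and 40.9% at Hira-null-only peaks (39.5% to 42.3%). The GC content was 42.0% in the Pde3a and Tead1 windows, 42.5% in Gata4 and 49.0% in Igf2, and lower in Macf1 at 30.0% and Col3a1 at 21.5%.

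Most peaks of either list had no partner in the other. In WT, 25070 of 27272 peaks (91.9%) were WT-only, and 5074 of 7332 Hira-null peaks (69.2%) were Hira-null-only. Chromosomes 8 and 11 held an excess of WT peaks, described last, and without them the shares were 89.8% of 18155 WT peaks (89.4% to 90.3%) and 72.1% of 6630 Hira-null peaks (71% to 73.2%). These shares are the split itself and compare lists of unequal length. Held to the same number of peaks by score, they were 83.3% and 82.1%. Values that follow are without chromosomes 8 and 11 unless stated.

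Strong peaks were shared more often than weak ones. In the lowest 10% of the WT list by score, 94.4% were WT-only (93.2% to 95.4%), and in the highest 10% it was 71.3% (69.2% to 73.4%). For Hira-null peaks the shares without a WT peak were 84.5% in the lowest 10% (81.5% to 87.1%) and 39.5% in the highest (35.8% to 43.4%). Shared peaks were also wider: 15.6% of shared WT peaks and 14.6% of shared Hira-null peaks spanned at least 2 kb, against 2.56% of WT-only and 2.80% of Hira-null-only peaks. Both measures also grow with the width over which an overlap can occur. Of WT-only peaks, 13.5% had a Hira-null peak within 10 kb, and 29.6% of Hira-null-only peaks had a WT peak within 10 kb. These shares depend on the length of the other list, 6630 Hira-null and 18155 WT peaks. No share expected from list length was computed, so they do not set the 2 sets apart.

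The 2 sets differed in how often their sequence recurs in the genome. At each midpoint, 25-base words were taken every 50 bp over 500 bp and counted on both strands of mm9, and a window was scored by the median count. Of WT-only peaks, 1.69% lay in sequence of 2 copies or more, against 34.6% of Hira-null-only peaks and 17.0% of 500 bp windows of the genome. At 10 copies or more the shares were 0.601% of WT-only (0.488% to 0.732%), 18.2% of Hira-null-only (17.1% to 19.3%) and 11.6% of genome windows (11.2% to 12.1%). Of shared WT peaks, 22.0% had 2 copies or more (20.2% to 24.0%), between the genome share and that of Hira-null-only peaks. Put the other way, 407 of the 682 WT peaks in repeated sequence were shared, which left 40.3% WT-only, against 91.8% of 17473 single-copy WT peaks. Among Hira-null peaks, 79.9% of 2070 in repeated sequence and 68.6% of 4560 in single-copy sequence had no WT peak. The 10% of Hira-null-only peaks with the highest scores held more, with 31.0% at 10 copies or more (26.8% to 35.3%). This was not particular to them: the highest-scoring 10% of shared Hira-null peaks stood at 33.5% (26.8% to 40.8%). Of all shared Hira-null peaks, 22.5% had 2 copies or more and 12.8% had 10 or more. At Syt1, the calcium sensor of synaptic vesicles, a Hira-null-only intron peak with a score of 1555 lay in sequence of 12.5 copies. The highest-scoring Hira-null-only peak, at Igf2, was single-copy. Distal intergenic Hira-null-only peaks were repeated in 40.6% of cases and those in or near genes in 27.3%.

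The same contrast of genotypes was seen at day 0, where 22.2% of WT and 64.4% of Hira-null peaks had 2 copies or more, against 3.76% and 31.2% at day 15. The handling of reads that map to several places was not given in the sources used here, and its part in these shares was not tested. On single-copy sequence alone, 50% of Hira-null-only peaks were distal intergenic in place of 55.0%, and all chromosomes together gave 581 genes with Hira-null peaks only in place of 860.

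**Figure D1:**
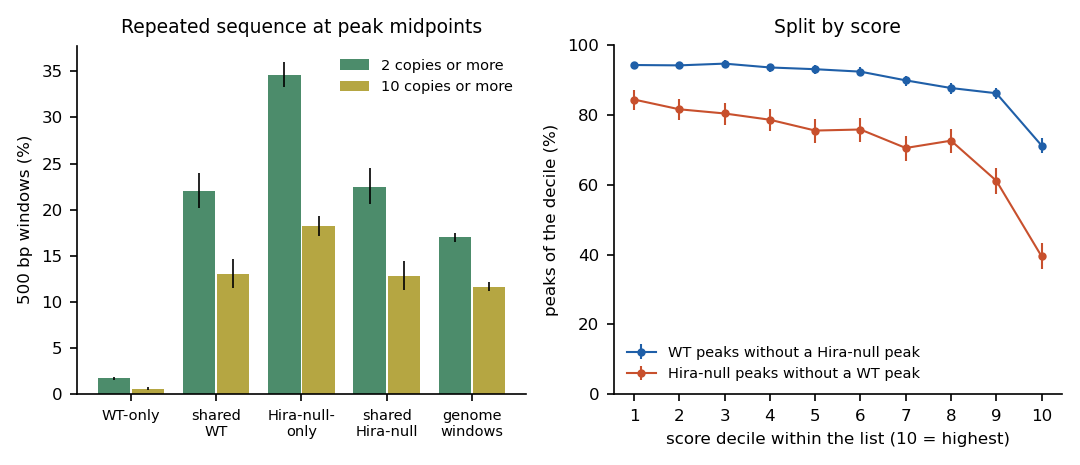
Left, share of 500 bp windows at peak midpoints whose 25-base words have a median of at least 2 or at least 10 copies in mm9, for WT-only, shared and Hira-null-only peaks and for genome windows. Right, share of peaks without a partner in the other list by 10% step of score within the list. Bars and points are shares in %, lines are 95% exact binomial intervals over peaks, and chromosomes 8 and 11 are left out. WT-only peaks sit at 1.69% and Hira-null-only peaks at 34.6% for 2 copies or more, and on the right both curves are lowest at the highest scores, at 71.3% and 39.5%.

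Genes were counted through a window from 10 kb upstream of the start to 200 bp past the end. Over all chromosomes, 27.7% of 22367 protein-coding genes had WT peaks only, 9.46% had peaks of both lists and 3.84% had Hira-null peaks only. Without chromosomes 8 and 11 these were 4642 genes (23.6% of 19632), 1808 genes (9.21%) and 834 genes (4.25%). Genes with peaks were long, with a median of 29.3 kb for WT only, 37.2 kb for both and 24.6 kb for Hira-null only, against 9.89 kb for genes with none. When both lists were cut to the same number of peaks, 2301 genes had WT peaks only, 1253 had both and 1389 had Hira-null peaks only, so the WT excess was smaller than with the full lists. When the WT list was cut to its 7332 highest scores over all chromosomes, the order turned outside chromosomes 8 and 11. There 1537 genes (7.83%) had WT peaks only and 1613 (8.22%) had Hira-null peaks only. Chromosomes 8 and 11 held 33.4% of WT and 9.57% of Hira-null peaks, so this cut did not make the lists equally long outside them.

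The genes with the most WT peaks and no Hira-null peak were large genes of the cytoskeleton, of signalling and of transcription control. Macf1, the microtubule and actin crosslinking factor, had 42 WT peaks over 335 kb, of which 37 were intronic. Their scores ran from 51.22 to 404.6 with a median of 94.09, and 12 of them were among the 7332 highest of the WT list. Pde3a, the cardiac cyclic nucleotide phosphodiesterase, had 27 peaks, 26 of them inside introns and none within 5 kb of its start or end. The highest-scoring intergenic WT-only peak lay 58.3 kb before the same gene, with a score of 734.3 and a width of 3634 bp.

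Tead1, the transcription factor through which Hippo signalling acts, had 26 WT peaks, 3 of them within 5 kb of the start. The WT peak at its end reached past the window and overlapped a Hira-null peak of 621 bp and score 73.08, centred 0.96 kb beyond the gene end. The other 25 WT peaks had no partner, and the WT midpoints ran from -3.06 kb onward through the gene. Ppp1r12a, the targeting subunit of myosin phosphatase, had 18 WT peaks with scores up to 427.9, and 17 of them were intronic. Akap13, a kinase anchoring protein, and Tcf12, a partner of tissue-specific helix-loop-helix factors, had 20 each. Nsd1, a histone H3 lysine methyltransferase, had 23, and Wnk1, a kinase of ion transport, and Trip12, a ubiquitin ligase, had 22 each. Dennd5b, a Rab exchange factor, also had 22, and its highest score of 668.6 was the largest in this group. None of these 10 genes held a Hira-null peak in its window, and at day 0 their WT counts ranged from 1 at Pde3a and Tcf12 to 33 at Macf1.

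**Figure D2:**
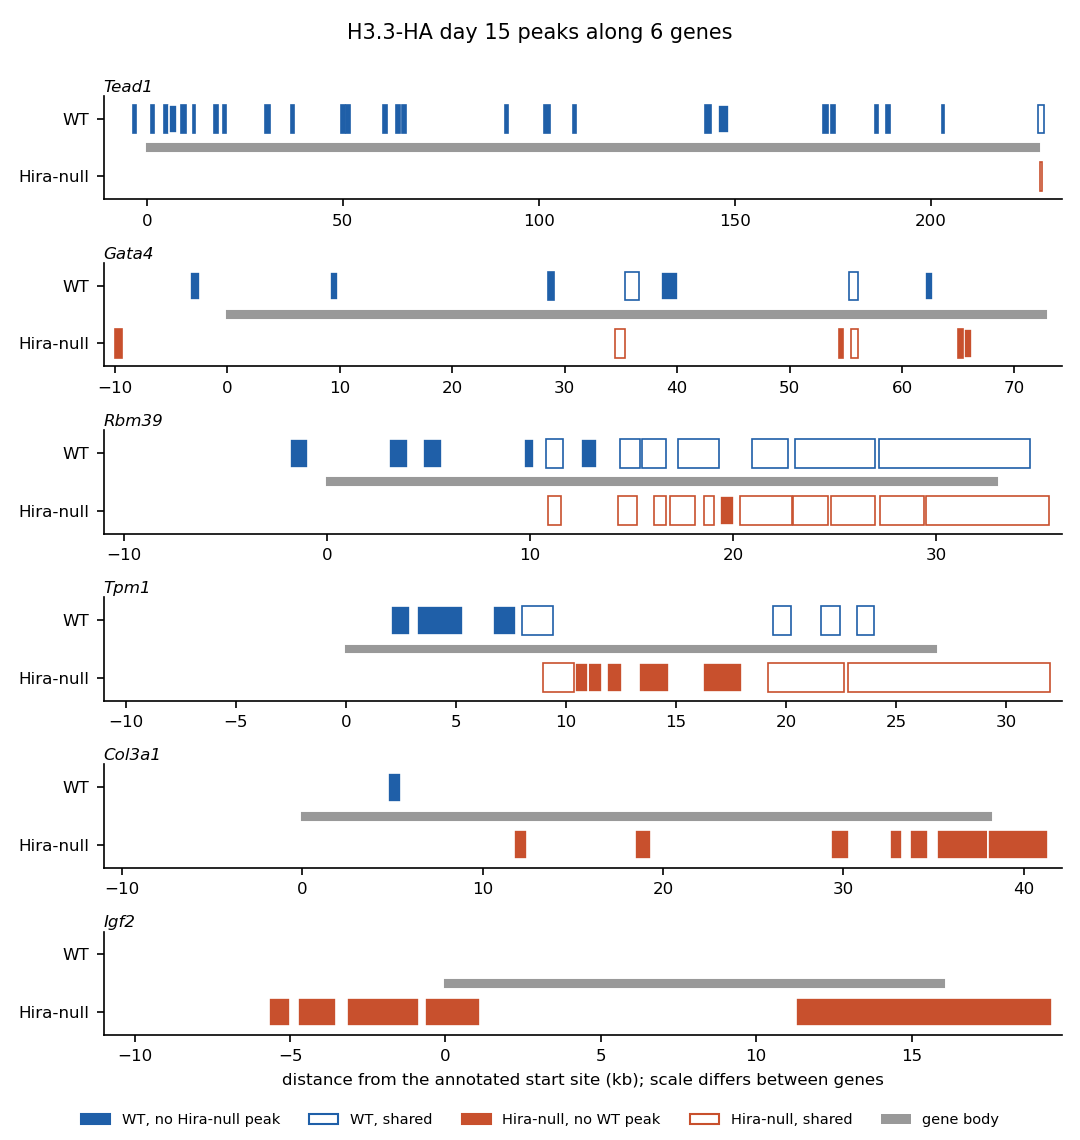
Day 15 peaks along 6 genes, drawn to scale by distance from the annotated start in kb (the scale differs between genes), with WT above and Hira-null below the grey gene body. Filled boxes are peaks without a partner in the other list and open boxes are shared peaks. Tead1 shows WT peaks throughout and 1 Hira-null peak past its end, Rbm39 shows both lists over its second part, and Igf2 shows Hira-null peaks only.

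Gata6 and Gata4, zinc finger factors of early heart development, differed. Gata6 had 4 WT peaks, at -6.04, 20.2, 21.7 and 23.1 kb, with scores of 83.57, 68.73, 91.64 and 50.83, and none reached a score of 100. Its window held no Hira-null peak, but 1 of 512 bp and score 52.2 lay 1.14 kb past the gene end, beyond the window. Gata4 had peaks of both lists, 7 in WT and 6 in Hira-null cells. The WT midpoints were at -2.89, 9.49, 28.8, 36.0, 39.3, 55.7 and 62.4 kb, with the highest score, 182.1, at 39.3 kb. The Hira-null midpoints were at -9.68, 34.9, 54.6, 55.8, 65.2 and 65.9 kb, with the highest score, 106.5, at 65.9 kb. Only 2 sites overlapped, those near 36.0 and 55.7 kb in WT. The WT peaks at -2.89 and 9.49 kb, nearest to the start, had no Hira-null partner.

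Of 28 cardiac transcription factor genes, 9 had WT peaks only, 3 had both and 3 had Hira-null peaks only, against 23.6%, 9.21% and 4.25% of all genes. Their median was 0 peaks in either list, as over all genes. Mef2a, a MADS-box factor of muscle genes, had 5 WT peaks, the highest with a score of 370.8. Mef2d, of the same family, had 3 WT peaks and no Hira-null peak. Hopx, a homeodomain protein of cardiac progenitors, had 2 WT peaks and 1 Hira-null peak, none of them overlapping. In the other direction Tbx5, the limb and heart T-box factor, had Hira-null peaks at 29.5 and 37.3 kb with scores of 207 and 82.91, and Zfpm2 and Prdm16 had 1 Hira-null peak each. The stronger Tbx5 peak lay in sequence of 2 copies.

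Of 22 sarcomere and cardiomyocyte contraction genes, 3 had WT peaks only, 4 both and 1 Hira-null only, and 14 had none, where 62.9% of all genes had none. Pdlim5, a Z-disc adaptor, had 9 WT peaks and no Hira-null peak, and Tnni1, slow skeletal troponin I, had 2 and 0. Actn2, the Z-disc actinin, had 1 Hira-null peak with a score of 78.12 and no WT peak. Of 19 smooth muscle genes, 6 had WT only, 5 both and 3 Hira-null only. Over all genes, for this and the sarcomere list, the shares were 23.6%, 9.21% and 4.25%. Acta2, smooth muscle actin, had 3 Hira-null peaks, with the widest, 6785 bp and score 1285, over its end, and 1 WT peak of score 68.36 at -7.76 kb that overlapped none of them. Tagln, a calponin-like actin binder, had 2 Hira-null peaks and no WT peak, and 1 of these, with a score of 148, also lay at the end of its neighbour Pcsk7, which had 3. Cald1, caldesmon, carried both: its end peak was 2319 bp wide in WT and 3268 bp in Hira-null cells. Rock2, a kinase of actomyosin contraction, had 16 WT peaks and no Hira-null peak.

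Tpm1, which encodes the main cardiac tropomyosin and is used in every muscle type, had 7 WT and 8 Hira-null peaks arranged along the gene. The WT peaks without a partner lay near the start, at 2.5, 4.26 and 7.21 kb, with scores of 83.54, 238.6 and 86.01. The Hira-null list had its highest scores over the end: 2035 for a peak of 9187 bp centred 0.621 kb past the gene end, and 734 for a peak of 3423 bp at 20.9 kb. The 3 WT peaks over the same stretch were 740, 859 and 814 bp wide with scores of 51.96, 91.82 and 61.84. Ryr2, through which calcium leaves the store of heart cells, had 5 WT and 4 Hira-null peaks, and 3 of the 4 Hira-null peaks lay in sequence of over 10 copies.

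In the BMP and TGF-beta, Wnt, Notch and calcium lists the share of genes with WT peaks only was above the 23.6% of all genes, as it was in 19 of the 30 lists. Their genes were long, with medians of 64.2, 28.2, 29.7 and 169 kb, against 15.6 kb over all genes. Long genes have large windows. WT only made up 29.5% of genes of 20 to 50 kb and 38.9% at 50 to 100 kb. It made up 39.6% at 100 to 200 kb, but 25% over 200 kb. In those 869 longest genes, both made up 26.8% and Hira-null only 11.3%. The part of gene length in the list shares was not tested. Of 25 BMP and TGF-beta genes, 15 had WT only, 3 both and none Hira-null only, with a median of 1 WT and 0 Hira-null peaks per gene. Bmpr2 and Bmpr1a, receptors of bone morphogenetic proteins, had 11 and 7 WT peaks, and Tgfbr3, the betaglycan co-receptor, had 10. Smad7, the inhibitor of the pathway, went the other way with 2 WT and 6 Hira-null peaks, 1 of the latter over its end with a score of 179.7. Among 20 Wnt genes, 10 had WT only, 2 both and none Hira-null only. Gsk3b, the kinase that marks beta-catenin for destruction, had 17 WT peaks, Tcf7l2, a nuclear effector, 12, and Lrp6, a co-receptor, 10, all without a Hira-null peak. Of 18 Notch genes, 8 had WT only, 2 both and none Hira-null only. Maml3, a coactivator, had 17 WT and 2 Hira-null peaks, and Rbpj, the DNA-binding effector, 8 and 0. Hes1, its target, had 3 WT peaks at -9.69, -8.8 and -2.15 kb without a partner, while the WT peak at 3.71 kb, past its end, was shared.

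For 23 calcium handling genes, the counts were 12 with WT only, 3 both and 0 Hira-null only, with Ppp3ca, a calcineurin catalytic subunit, at 8 WT and 0 Hira-null peaks. Stim1, the calcium store sensor, had 6 WT peaks and no Hira-null peak. Atp2a2, which pumps calcium back into the store, had 5 WT peaks and no Hira-null peak, with the highest score, 338.5, over its end. FGF and receptor tyrosine kinase genes counted 10, 5 and 1 of 22, with Braf at 10 WT peaks and no Hira-null peak. Over all genes the shares were 23.6% WT only, 9.21% both and 4.25% Hira-null only. Axon guidance genes counted 8, 5 and 1 of 23, with Epha4 at 10 WT peaks and none in Hira-null cells. When the WT list was held to its 7332 highest scores, the genes with WT peaks only became 10 of 25 for BMP and TGF-beta, 6 of 20 for Wnt, 7 of 23 for calcium handling and 2 of 18 for Notch, and 1 gene had Hira-null peaks only in each list. Over all genes this cut gave 7.83% with WT peaks only and 8.22% with Hira-null peaks only. Because the cut was made over all chromosomes, these list counts do not compare lists of equal length.

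Splicing factors had the largest share of genes with both lists among the 30 lists. Of 24 splicing factor genes, 18 had peaks of both lists, 5 WT only and 1 Hira-null only, against 9.21% of all genes with both. Within 1 kb of the gene end, 21 of these 24 genes had a WT peak and 17 a Hira-null peak, against 8.28% and 3.61% of all genes. At the start sites the counts were 5 and 0, against 9.29% and 0.902% of all genes. The medians were 4 WT and 1 Hira-null peaks per gene. Rbm39, a splicing coactivator, had 12 WT and 11 Hira-null peaks. Its end was covered by a WT peak of 7452 bp with a score of 1694 and a Hira-null peak of 6043 bp with a score of 1968. The 7 WT peaks with a partner lay at 11.2 kb or farther into the gene, and of the 5 without one, 3 lay nearest to the start, at -1.38, 3.51 and 5.18 kb. Luc7l2, a splicing cofactor, was 1 of the 5 genes with WT only, with 15 WT peaks.

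Over all genes, 9.21% had peaks of both lists, 23.6% WT only and 4.25% Hira-null only. Translation factor genes counted 12 both, 7 WT only and 1 Hira-null only of 23. Eif4b, a helicase cofactor of initiation, had 7 WT and 6 Hira-null peaks. Ribosomal protein genes counted 29 both, 27 WT only and 4 Hira-null only of 75. A WT peak lay within 1 kb of the end in 49 genes and a Hira-null peak in 30, against 8.28% and 3.61% of all genes. At the start the counts were 8 and 3, against 9.29% and 0.902%. At Rpl5 the end peak was 4169 bp wide with a score of 951.8 in WT and 5194 bp with a score of 1196 in Hira-null cells. Rps24 was counted as Hira-null only, yet its peak of 5621 bp past the gene end overlapped a WT peak that lay outside the window. Of 17 glycolysis genes, 8 had both, 4 WT only and none Hira-null only. Slc2a3, a glucose transporter, had 12 and 8 peaks, with the shared ones at its end and near 28.6 kb in WT. For 27 oxidative phosphorylation genes the counts were 4 both, 13 WT only and none Hira-null only, and Atp5b, the beta subunit of ATP synthase, had an end peak of 3785 bp in WT and 3583 bp in Hira-null cells.

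Immediate early genes are short and fast to respond. Of 20, 8 had WT only, 4 both and 1 Hira-null only. The shares over all genes, here and for the lists below, were 23.6% WT only, 9.21% both and 4.25% Hira-null only. At Cyr61 and Ctgf, secreted targets of YAP and TEAD, the end peaks had scores of 401 and 346.9 in WT and 165.8 and 210.4 in Hira-null cells, while the WT peaks at -1.78 kb of Cyr61 and -4.83 kb of Ctgf had no partner. Egr1 had a single Hira-null peak, 0.338 kb past its end. The other lists with many genes of both kinds were cytoskeleton and adhesion, with 11 both, 6 WT only and 2 Hira-null only of 24, and the H3.3 chaperones, with 5, 4 and 1 of 14. Myh9, non-muscle myosin, had 10 WT and 12 Hira-null peaks. Cell cycle genes counted 8, 16 and 0 of 28, chromatin regulators 12, 16 and 0 of 36, and DNA repair genes 1, 13 and 1 of 24. Setd2, the methyltransferase of transcribed chromatin, had 13 WT peaks and 1 Hira-null peak, and Rev1, a translesion polymerase, 13 and 0.

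The targeted gene and its substrate were measured too. Hira had WT peaks at -4.32, 17, and 93.7 kb, the last just past its end, and Hira-null peaks at 32.3 and 34.3 kb, none of them shared. A peak list of H3.3 does not check the deletion, because it measures neither RNA nor protein. H3f3a, one of the genes for H3.3, had 3 WT and 4 Hira-null peaks, and its end peak was 2036 bp wide in WT and 4311 bp in Hira-null cells.

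Genes with Hira-null peaks only formed a shorter list, led by Igf2 with 5 peaks and none in WT. Igf2 encodes a fetal growth factor and is expressed from the paternal allele. Its peak of 8240 bp and score 1946 over the gene end was the highest-scoring of all Hira-null-only peaks, and the others lay at 0.224, -2.02, -4.14 and -5.35 kb with scores of 338.9, 418.3, 144.6 and 58.15. All 5 were in single-copy sequence, and neither day 0 list had a peak in the window. Thbs1, the matrix glycoprotein thrombospondin, had 4 Hira-null peaks at 10.7, 12.4, 14.5 and 15.7 kb, the last past its end, with scores of 55.55 to 122.8. Col5a1, a fibrillar collagen chain, had 4, with the highest score, 271.8, at 137 kb. Rcn3, a calcium-binding protein of the secretory pathway, and Zfp110, a zinc finger gene, had 3 each, and in both the widest lay within 2 kb of the gene end. These genes differ from Slc44a5, a transporter gene, and Gm13138, where every Hira-null peak lay in sequence of over 2 copies, and from Nkain3 and Ppm1h, where 1 did.

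Matrix and fibroblast genes had the second largest share with Hira-null peaks only among the 30 lists, after imprinted genes. Of 25, 10 had both, 4 WT only and 4 Hira-null only, against 9.21%, 23.6% and 4.25% of all genes. A Hira-null peak lay within 1 kb of the end in 8 and a WT peak in 3, against 3.61% and 8.28% of all genes. Summed over the gene windows of the list there were 46 WT and 34 Hira-null peaks, while over all genes the sums were 16461 and 4144. A peak in several windows counts in each. With the WT list held to its 7332 highest scores over all chromosomes, 11 of the 25 genes had Hira-null peaks only and 1 had WT peaks only. Over all genes these shares were 8.22% and 7.83%. Outside chromosomes 8 and 11 this cut did not make the lists equally long, and no gene list was counted with a cut made without them. Col3a1, a fibrillar collagen of mesenchymal cells, had 7 Hira-null peaks, the last 2 of which covered its end with widths of 2861 and 3311 bp and scores of 515.6 and 741.1. Its single WT peak, at 5.12 kb with a score of 53.19, overlapped none of them. Fn1, fibronectin, had 5 Hira-null peaks over its last part, the highest with a score of 408.5, and the WT peak past its end had a score of 127.7. Vim, the intermediate filament of mesenchymal cells, had a shared end peak of 1994 bp in WT and 3680 bp in Hira-null cells, and 2 more Hira-null peaks upstream. The laminin genes behaved differently: Lamc1 had 14 WT peaks and 1 Hira-null peak, and Lamb1 10 and 2.

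Imprinted genes, which are expressed from 1 parental allele, were the only list among 30 with more Hira-null than WT peaks apart from the olfactory receptor genes. Summed over the windows of the 26 genes there were 38 WT and 64 Hira-null peaks. Neighbouring windows can hold the same peak, as those of Sgce and Peg10 did, and it then counts for each gene. By class there were 9 genes of both kinds, 5 WT only and 5 Hira-null only, and a median of 1 peak in each list. Over all genes, 9.21% were of both kinds, 23.6% WT only and 4.25% Hira-null only. Within 1 kb of the start site, 6 of the 26 had a Hira-null peak and 0 a WT peak, against 0.902% and 9.29% of all genes. Peg3, a paternally expressed zinc finger gene, had 10 Hira-null peaks with scores up to 903.9 and 4 WT peaks with scores up to 133.4, each of the 4 shared. Igf2r, which clears the growth factor IGF2, had 12 Hira-null and 5 WT peaks, and its highest Hira-null score, 1212, belonged to a peak of 4339 bp at 25.2 kb without a WT partner. Kcnq1, a potassium channel gene whose intron gives rise to an imprinting transcript, had 10 and 6. The largest Hira-null peak, 4952 bp with a score of 856.4, lay at 122 kb, where WT had 3 peaks with scores of 50.44 to 79.59, and 5 of the 10 Hira-null peaks were in repeated sequence. Mest had a shared end peak with a score of 114.3 in WT and 1169 in Hira-null cells. Within its own list the Hira-null peak was among the highest 10% of scores and the WT peak was not. Between lists these scores do not measure a change, because depth was not known. Plagl1, a paternally expressed zinc finger gene, had a Hira-null peak at 0.572 kb with a score of 213.1 and no WT peak. These genes were put together as a list after earlier results of these data were known, so their counts are a description only.

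The remaining lists are given as counts. Over all genes, 23.6% had WT peaks only, 9.21% both and 4.25% Hira-null only, and 9.29% had a WT peak within 1 kb of the start. Among 320 zinc finger genes named Zfp, 75 had WT only, 35 both and 39 Hira-null only (12.2%, against 4.25% of all genes), and 41 had a WT peak within 1 kb of the start. Interferon response genes counted 9, 0 and 2 of 24, with 37.5% WT only against 23.6% of all genes, and the WT peak lay within 1 kb of the start in 6 of them. Pluripotency genes counted 5, 0 and 1 of 20, with Lin28a, an RNA-binding protein of early cells, at 4 WT peaks. Neural genes counted 4, 2 and 0 of 24, and endothelium and blood genes 4, 2 and 1 of 17. Hox genes had 2 of 29 with any peak, vomeronasal receptor genes 4 of 321, and olfactory receptor genes 3 with WT only, 3 both and 7 Hira-null only of 1027.

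**Figure D3:**
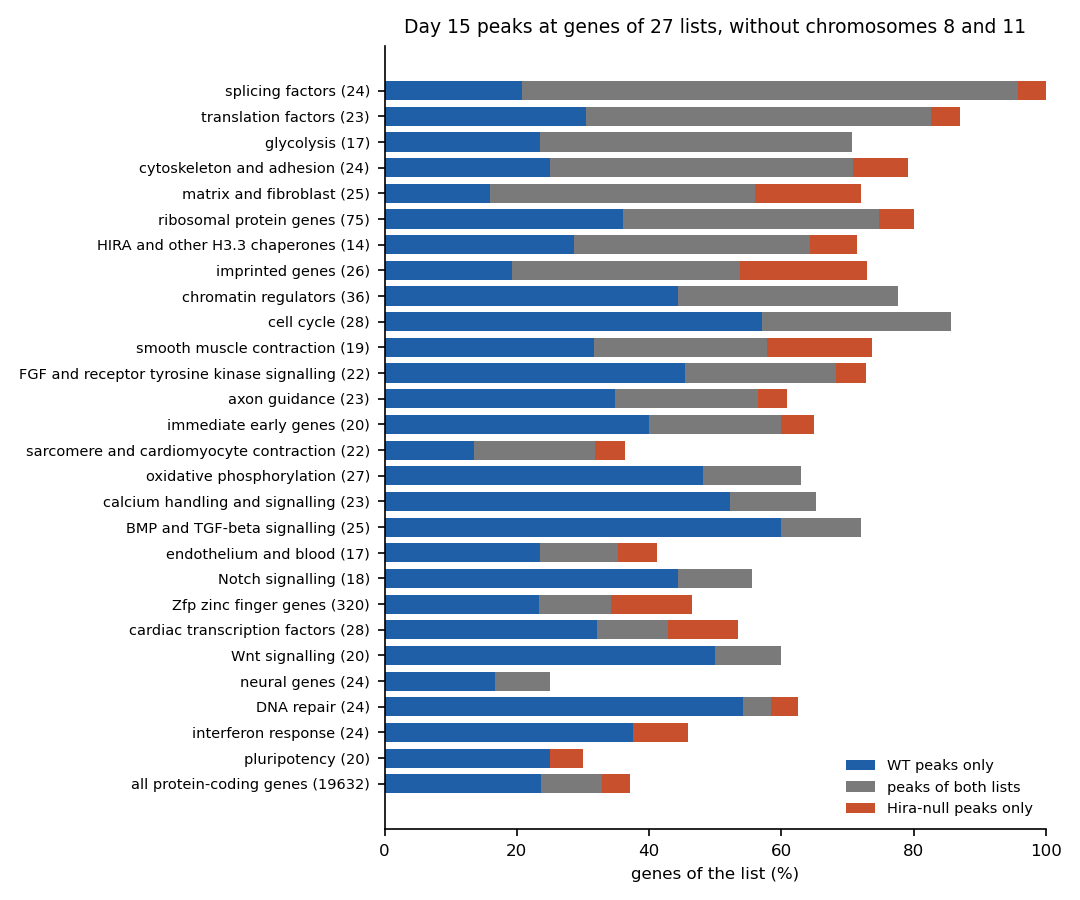
Share of the genes of each list, in %, with WT peaks only, with peaks of both lists and with Hira-null peaks only in the gene window, without chromosomes 8 and 11. The number of genes is in brackets, and all 19632 protein-coding genes are the lowest bar. Gene length differs between the lists and is not adjusted for. Splicing factors have the largest share with both (75%), BMP and TGF-beta genes the largest share with WT only (60.0%), and imprinted genes the largest share with Hira-null only (19.2%).

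Starts and ends of genes set the lists apart across the genome. Within 1 kb of a start site, 1824 genes (9.29%) had a WT peak and 177 (0.902%) a Hira-null peak. Near gene ends the counts were 1625 (8.28%) and 708 (3.61%), and 407 genes had both, which is 57.5% of those with a Hira-null peak and 25% of those with a WT peak. Over all chromosomes the same 4 shares were 12.6%, 0.921%, 10.9% and 3.72%. WT-only peaks were most frequent from 1 kb to 500 bp before a start, with 34.0 midpoints per 1000 peaks, and dropped to 6.01 per 1000 in the first 500 bp of the gene. Hira-null-only peaks reached 6.90 and 2.30 per 1000 in those bins. Past the gene end, in the first 500 bp, shared WT peaks stood at 42.2 per 1000, WT-only at 17.7 and Hira-null-only at 11.5. By class, 14.3% of WT-only midpoints were in the 3 kb before a start (4.29 times the genome share). The 3 kb after an end held 25.6% of shared WT midpoints (7.96 times), 10.5% of Hira-null-only (3.26 times) and 8.21% of WT-only (2.56 times). Introns held 51.7% of WT-only (1.54 times), 29.1% of shared WT (0.865 times) and 27.7% of Hira-null-only midpoints (0.824 times). Hira-null-only midpoints were distal intergenic in 55.0% of cases (0.949 times). All 44 WT peaks centred in a 5′ UTR were WT-only.

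Inside single genes of at least 20 kb, WT-only peaks leaned to the beginning. The first 20% of the gene held 25.5% of 9153 WT-only midpoints and the last 20% held 16.0%. For 609 shared WT midpoints the shares were 11.8% and 38.8%, and for 1412 Hira-null-only midpoints 15.2% and 28.5%. Tpm1 and Rbm39 are single genes with WT-only peaks towards the start and shared peaks at the end. Hes1 is not an example, as no peak midpoint lay inside it.

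**Figure D4:**
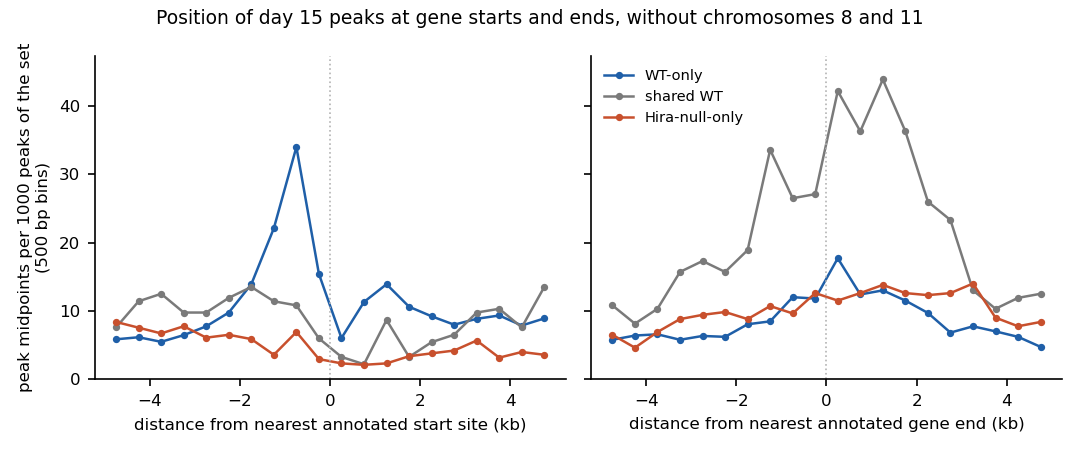
Midpoints of WT-only, shared WT and Hira-null-only peaks per 1000 peaks of each set in 500 bp bins around the nearest annotated gene start (left) and gene end (right), without chromosomes 8 and 11. WT-only peaks are highest just before the start, at 34.0 per 1000, and shared WT peaks past the end, at 42.2 per 1000 in the first bin and 43.9 in the third.

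The sequence at the peaks was not that of CpG islands. The median GC content was 42.0% at WT-only (38.4% to 45.8% between quartiles), 41.2% at shared WT and 42.0% at Hira-null-only peaks, against 41.4% in genome windows and 50.4% in the 500 bp before every start site. Windows with over 50% GC and a CpG ratio over 0.6 made up 28.2% of the windows before start sites and 0.684% of genome windows (0.638% to 0.733%). They made up 0.172% at WT-only peaks (0.114% to 0.248%), below the genome share. At Hira-null-only peaks they made up 0.774% (0.546% to 1.07%), an interval that holds the genome share. In 500 bp windows the AP-1 letters were found in 13.3% of WT-only, 10.9% of shared WT and 10.6% of Hira-null-only peaks, against 7.59% of genome windows, and the GATA letters in 39.3%, 39.2% and 36.6%, against 30.1%. The NKX2-5 letters stood at 27.6%, 29.0% and 20.5%, against 25.3% in the genome, and the MEF2 letters at 9.11%, 7.15% and 5.38%, against 9.66%. The TEAD letters stood at 28.2%, 28.5% and 29.3%, against 25.2%. In all, 11 motifs were counted in these windows. The T-box letters, AGGTGTGA, stood at 1.88%, 1.52% and 1.76%, against 1.92% in the genome. At WT-only peaks the SP/KLF letters stood at 5.21%, against 4.49% in the genome, and the ETS letters at 1.56%, against 1.39%. There the NRF1 letters stood at 0.0981%, against 0.0665%, and the CRE letters at 0.337%, against 0.261%. The YY1 letters stood lower there, at 0.0797% against 0.494%. The order of the sets changed with the window for GATA: in 200 bp windows those letters were in 18.8% of WT-only, 19.8% of shared WT and 20.8% of Hira-null-only peaks (19.7% to 22.0%), against 13.3% of the genome. The TEAD letters were in 12.8%, 13.6% and 16.3% of the 200 bp windows, against 10.8%. A match is a description of letters and not a bound site, and the repeated sequence of many Hira-null-only peaks enters these shares.

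The highest-scoring peaks of each set lay in varied places. The first 5 WT-only peaks were at the Ggcx and Mat2a locus (8397 bp, score 1323), downstream of Msh6 (6277 bp, score 986), upstream of Pde3a, downstream of Btf3 (score 676) and at Ctnnal1 and D730040F13Rik (score 669). Mat2a makes the methyl donor of the cell and Btf3 assists nascent proteins. The first 5 shared WT peaks were in an intron of D5Ertd579e, which reached the highest score given, 3100, near Apba2, at Eif4a2, an initiation helicase, at Phf10, and at Rbm39. Among Hira-null-only peaks, Igf2 was followed by Lonrf2 (score 1866), a site near Wac (score 1833), Syt1 and a site near Tmem207 (score 1487).

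Peaks of the same genotype at day 0 overlapped a minority of each set. Of WT-only peaks, 18.0% overlapped a WT day 0 peak and 1.55% a Hira-null day 0 peak, and 81.5% overlapped neither. Shared WT peaks overlapped them in 39.0% and 20.1% of cases. For Hira-null-only peaks the shares were 25.2% on Hira-null day 0 and 11.9% on WT day 0 peaks. On single-copy sequence over all chromosomes, the first of these was 16.0% in place of 25.5%. Pde3a and Tcf12 had 1 WT day 0 peak each beside 27 and 20 at day 15, whereas Trip12 had 25 beside 22.

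Peaks were also joined into domains of at least 5 with gaps of up to 12 kb. WT had 549 such domains, and 55.6% held no Hira-null peak, among them 24 peaks over 94.4 kb of Macf1. Hira-null cells had 111 domains, and 10.8% held no WT peak. The lists differ in length, with 18155 WT and 6630 Hira-null peaks, and domains were not counted at equal length. The part of list length in these shares was not tested. At Nedd4, a ubiquitin ligase, a Hira-null domain of 12 peaks overlapped 6 WT peaks, and the gene window held 25 WT and 11 Hira-null peaks. Dnm3, a dynamin, had 14 and 12 peaks, all in introns, and Phactr2, an actin and phosphatase regulator, 11 and 11, of which 8 in each list had no partner. Fgfr2 was counted with 49 and 13, but over an annotated span of 3009 kb. These counts describe that whole region and cannot be credited to Fgfr2 alone.

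Chromosomes 8 and 11 stood apart in the WT list. They carried 26 and 46.7 WT peaks per Mb, against 6.65 to 10.5 on the other autosomes, and 2.16 and 3.42 Hira-null peaks per Mb. At day 0 the WT list held 12.6 and 23.7 per Mb on them, a smaller excess over the other autosomes, which held 6.67 to 10.1. The X chromosome was the reverse: 24 WT peaks (0.144 per Mb) and 99 Hira-null peaks (0.594 per Mb), so that X and Y were the only chromosomes with fewer WT than Hira-null peaks. Copy number of these chromosomes was not measured, and its part in the counts was not tested. On chromosomes 8 and 11, Ankrd11, a chromatin regulator, had 55 WT peaks and no Hira-null peak, Msi2, an RNA-binding protein, 45, Ncor1, a corepressor, 38, Med13, a Mediator subunit, 37 and Meis1, a homeobox factor of the heart, 36. At Tbx2, a T-box repressor of chamber genes, the 4 WT peaks lay at -8.02, -4.87, -1.51 and 6.71 kb with scores of 59.22, 167.7, 118.7 and 135.3, and 1 more of score 56.22 lay past the window. Hira-null peaks only were found at Gm17329 with 3, Acsf3 with 2, and Gabrp, Fancl and Wap with 1 each.

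**Figure D5:**
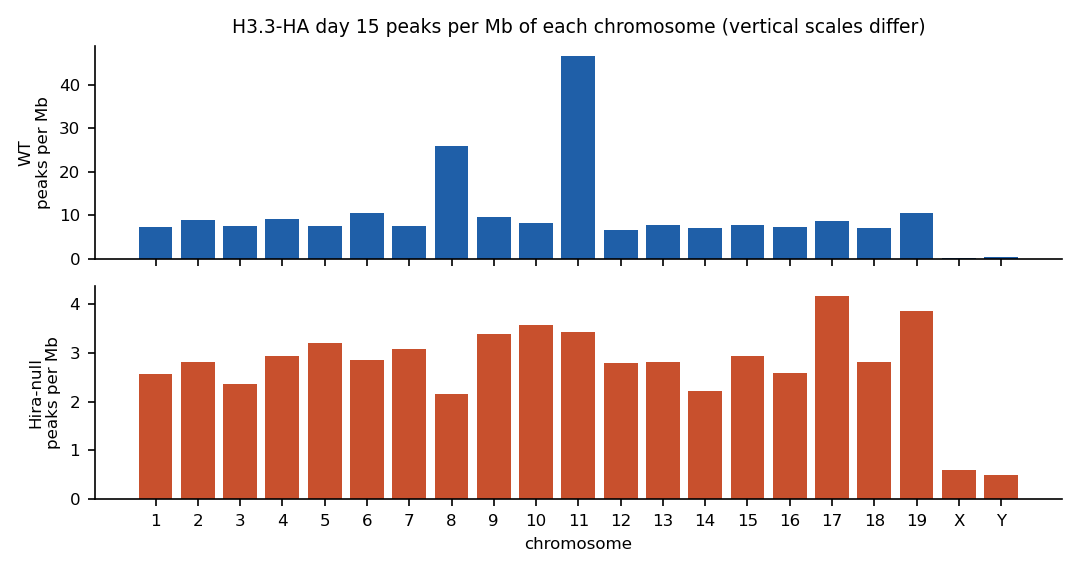
Day 15 peaks per Mb of each chromosome for WT (above) and Hira-null cells (below), with different vertical scales. WT reaches 26 on chromosome 8 and 46.7 on chromosome 11 and falls to 0.144 on X, while Hira-null autosomes stay between 2.16 and 4.17.

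Marker genes of cell types were checked over all chromosomes, and peaks at them do not name the cells. Of all genes there, 27.7% had WT peaks only, 9.46% peaks of both lists and 3.84% Hira-null peaks only. Of 15 cardiomyocyte markers, 6 had a WT peak and 2 a Hira-null peak, with 19 and 5 peaks in all (genes: 5 WT only, 1 both, 1 Hira-null only). Of 8 fibroblast markers, 7 and 6 did, with 8 WT and 21 Hira-null peaks in all (genes: 1 WT only, 6 both, 0 Hira-null only). Of 7 smooth muscle markers, 5 had peaks in each list, 15 and 12 in all (genes: 2 WT only, 3 both, 2 Hira-null only). Of 6 endothelial markers, 3 had peaks in each list, 12 and 4 in all (genes: 1 WT only, 2 both, 1 Hira-null only). The 4 neural markers found had 4 WT peaks at 2 genes and no Hira-null peak, and of 6 pluripotency markers 1 had a WT peak (Nanog, at -0.54 kb) and 1 a Hira-null peak (Esrrb, at 34.1 kb). The fibroblast markers include matrix genes described above. Peak totals of markers are sums over gene windows, so a peak in several windows counts in each. In bulk chromatin a different mix of cells and a different placement of H3.3 in the same cells cannot be told apart.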

How the data were processed

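H3.3-HA was measured by native ChIP-seq in WT and Hira-null cells at days 0 and 15, with 1 ChIP and 1 input library for each of the 4 conditions. The study's methods name Bowtie for the alignment of read pairs to mm9 and Samtools for the removal of duplicates. Peaks were called with MACS (version 1.4.2 in the submitters' processing notes). The deposited lists of the authors give each peak's position and a score, the scaled negative log10 of its p-value. Depth and the control used in peak calling were not given in the sources used here. Scores were therefore compared within a list only, and scores of both lists printed at 1 locus are no measure of change.

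Peaks were split by an overlap of 1 bp. A count with bedtools 2.31.1 differed for 0 of 27272 WT and 0 of 7332 Hira-null peaks. Genes were the 22367 protein-coding genes of GENCODE M1 on the same build, and sequence and repeat copies were read from the mm9 reference. Computations ran in Python 3.11.15 with scipy 1.17.1, numba 0.67.0, pandas 2.3.3, numpy 2.4.6 and matplotlib 3.10.9, and were tested on simulated data. With 1 library per condition no test between conditions was made, and intervals are exact Clopper-Pearson intervals.

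Named were the 10 genes with the most WT peaks and no Hira-null peak, the 10 with the reverse, the 5 with the most peaks in the list with fewer, genes at the 5 highest-scoring peaks of each set, up to 6 genes per list with the most peaks, Gata6, Meis1 and Tbx2, and 5 genes per direction on chromosomes 8 and 11. Other list members that are named were chosen after their values were seen. The members and the 30 gene lists were chosen with earlier results of these data known. H19, Sox1 and Map2 were not found among the genes used. Alternatives covered overlap, score, list length, merging, classes and chromosomes.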

Additional observations from a re-analysis of the deposited data

How the results depend on the processing

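Among the alternative values, 50 stayed within their interval or within 1.5 times the count and 53 moved. With only the WT list held to its 7332 highest scores over all chromosomes, outside chromosomes 8 and 11 there were 1537 genes with WT peaks only and 1613 with Hira-null peaks only. That cut did not make the lists equally long outside these chromosomes. The settings on single-copy sequence and on equal length without chromosomes 8 and 11 were chosen after seeing the data. WT peaks without a Hira-null peak (91.9%) were 93.8% with 50% of the peak covered, 90.0% with the other list widened by 1 kb, 91.6% at a score of at least 100 and 93.6% on single-copy sequence. The Hira-null share (69.2%) was 72.8%, 63.7%, 72.3% and 65.7% in the same order, and 70.8% with close peaks merged. Without chromosomes 8 and 11 the shares were 89.8% and 72.1%.

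With lists of equal length, on all chromosomes and then without 8 and 11, WT peaks without a partner were 85.4% and 83.3%, Hira-null peaks 83.4% and 82.1%, genes with WT peaks only 2473 and 2301 (6191 with full lists), with Hira-null only 1682 and 1389 (860), with both 1295 and 1253 (2117), and with a WT peak near the start 931 and 755 (2816). The promoter share of WT-only peaks (14.4%) was 16.1% and 15.9%, the distal share of Hira-null-only peaks (54.7%) 52.2% and 53.3%, WT-only peaks on WT day 0 peaks (20.4%) 34.2% and 26.3%, and Hira-null-only peaks on Hira-null day 0 peaks (25.5%) 24.0% and 24.3%. The median GC of WT-only peaks (42.4%) was 42.0% in the second.

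At a score of at least 100 there were 3983 genes with WT only, 930 with both, 1331 with a WT peak near the start and 497 with a Hira-null peak near the end (831). The promoter share was 15.7%, the day 0 shares 29.9% and 32.4%, and the Hira-null-only GC (42.0%) 41.6%. Merging gave a promoter share of 14.9%, a distal share of 56.9% and a WT-only GC of 42.8%. A 1 kb promoter gave 6.55%, class by any overlap a distal share of 53.2%, and the widened list 56.7%. GC over whole peaks was 42.6% and 42.2%. Single-copy sequence gave a distal share of 49.4% and a Hira-null day 0 share of 16.0%. Without chromosomes 8 and 11, 1824 genes had a WT peak near the start, the WT-only GC was 42.0% and the WT day 0 share 18.0%. Beyond the construction of each setting, the cause was not tested.

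No paired analysis was possible because each condition had 1 ChIP library. For the same reason no difference has a replicate check, and depth could not be compared.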
